A study of Mus musculus with 12 samples.

Results

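Regions of lower DNA methylation at genes of the Gpr and Adgr receptor families were examined in lineage-negative bone marrow progenitors of Dnmt1 mutant and wild-type mice. Members were taken from the deposited list of regions hypomethylated in the mutant, where the named gene began with Gpr and a digit, or with Adgr, and the deposited distance to it was 5000 bp or less. This rule took 139 of 35439 listed regions, at 46 genes: 80 regions at 16 Adgr genes and 59 regions at 30 Gpr genes. The regions were thus chosen by their measured methylation difference between the genotypes, so every difference between mutant and wild type at a member is a description and carries no test. All mice were BALB/c. The wild type carried unaltered Dnmt1, and the labels write the other genotype as dnmt1-/-, whereas the series' text speaks of 1 designed mouse mutation modelled on missense, hypomorphic alleles of fish. Dnmt1 is the enzyme that copies methylation onto the new DNA strand after replication. The 12 libraries comprised 6 per genotype, from 3 replicate numbers and 2 library kits, and the values held 3 columns per genotype, so n = 3 against 3 throughout. In a lineage-negative sample mature blood cells have been removed by their surface markers, and a level is a mean over the progenitor types that remain. Marker expression was not analysed here, so the labelled cell type was not checked. The labels do not say whether replicates were separate animals, so any p-value covers only the spread between these columns, and the number of reads behind each level is unknown.

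G protein-coupled receptors cross the membrane with a bundle of helices and pass a signal to trimeric G proteins inside the cell. Adhesion receptors, named Adgr, add a long extracellular part that binds other cells or matrix and is often cut by the receptor itself. Names that start with Gpr were mostly given to receptors whose ligand was unknown at the time, and several have since been matched to protons, lipids or metabolites. Not every gene so named encodes such a receptor. The gene lists used here place Gpr107, Gpr137 and Gpr180, with 5 members, among Gpr-named membrane proteins of other folds or uncertain class. Many of these genes act in brain or endocrine tissue, and a smaller set is known from blood and immune cells. In mammals most CpGs outside CpG islands are methylated, and methylation near a gene start often accompanies silence of that gene.

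Among genes with an entry in the RefSeq promoter table, member regions covered the window around the start at Adgrg3, Gpr35 and Gpr146 and reached into it from before the start at Gpr132, all genes on the list of receptors known from blood and immune cells. The 250 bases before those starts are shown because they hold CpGs whose levels are reported here. They are RefSeq sequence of the mouse build GRCm38.p6 (mm10), written 5′ to 3′ on the strand of the gene, with CpGs that lie inside the member region in capitals.
Adgrg3 (chr8:95017442-95017691, plus strand): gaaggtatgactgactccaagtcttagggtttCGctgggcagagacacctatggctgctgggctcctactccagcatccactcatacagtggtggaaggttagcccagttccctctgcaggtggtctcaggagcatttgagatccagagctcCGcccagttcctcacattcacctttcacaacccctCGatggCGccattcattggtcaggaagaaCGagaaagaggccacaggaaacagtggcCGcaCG
Gpr35 (chr1:92978653-92978902, plus strand): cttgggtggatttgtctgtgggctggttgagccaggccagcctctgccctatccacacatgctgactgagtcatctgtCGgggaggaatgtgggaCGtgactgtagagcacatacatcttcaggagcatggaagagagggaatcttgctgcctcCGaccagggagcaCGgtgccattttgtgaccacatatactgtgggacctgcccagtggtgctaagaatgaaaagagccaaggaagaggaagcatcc
Gpr132 (chr12:112860917-112861166, minus strand): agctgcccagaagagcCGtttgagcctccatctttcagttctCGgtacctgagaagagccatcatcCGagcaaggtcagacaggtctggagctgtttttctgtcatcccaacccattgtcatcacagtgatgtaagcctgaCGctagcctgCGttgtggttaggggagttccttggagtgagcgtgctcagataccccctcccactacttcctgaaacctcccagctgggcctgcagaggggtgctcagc
Gpr146 (chr5:139389654-139389903, plus strand): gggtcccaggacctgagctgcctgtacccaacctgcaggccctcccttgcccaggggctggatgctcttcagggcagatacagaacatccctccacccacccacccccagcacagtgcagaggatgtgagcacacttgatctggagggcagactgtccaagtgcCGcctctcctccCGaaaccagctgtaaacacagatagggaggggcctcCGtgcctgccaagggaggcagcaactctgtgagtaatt
The window before Adgrg3 held 7 CpGs, all inside the region. That of Gpr132 held 6, of which 5 were inside, and those of Gpr35 and Gpr146 held 4 and 3, all inside. Over 32851 RefSeq promoter windows the 250 bases before the start held a median of 6 CpGs (quartiles 2 and 16), and 92.1% held the letters CG at least once. With 3 to 7 CpGs, these 4 windows were near or below that median. The sequence table had entries for 31 of the 46 member genes. A member of Adgrf5, which is not on the list of blood and immune receptors, also overlapped its window, by 25 bp. That overlap held 1 CpG, which did not lie in the 250 bases before the start.

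Over the 139 regions the mean methylation level was 43.2%, 45.1% and 47.5% in the mutant replicates against 75.1%, 75.3% and 75.4% in the wild type. The means were 45.3% ± 2.12 and 75.2% ± 0.144 (SD, n = 3 each), a difference of -29.96 percentage points. Over all listed regions within 5 kb of any gene the mean difference was -28.3 points. The median difference of the members was -27.5 points, with quartiles of -35.3 and -22.8, against a median of -26.0 points for the listed regions within 5 kb of any gene. The replicates of the genotypes did not overlap in 139 of 139 members, with the mutant lower, as in 100.0% of listed regions. No listed region lost less than 20 points, so nothing is read from this separation.

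Members held a median of 13 CpGs and 790 bp, against 12 CpGs and 723 bp for the listed regions within 5 kb of any gene. At least 20 CpGs were held by 40 members (28.8%, against 15.6%), and a loss of 40 points or more occurred at 21 members (15.1%, against 8.70%). Those shares rested partly on 2 genes, Adgrb1 and Adgrb2, which held 37 members (26.6%). Without them, 21.6% of 102 regions held at least 20 CpGs, 10.8% lost 40 points or more, and the median difference was -25.8 points. No test was made of these contrasts, because the same genotype difference chose the regions.

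**Figure D1:**
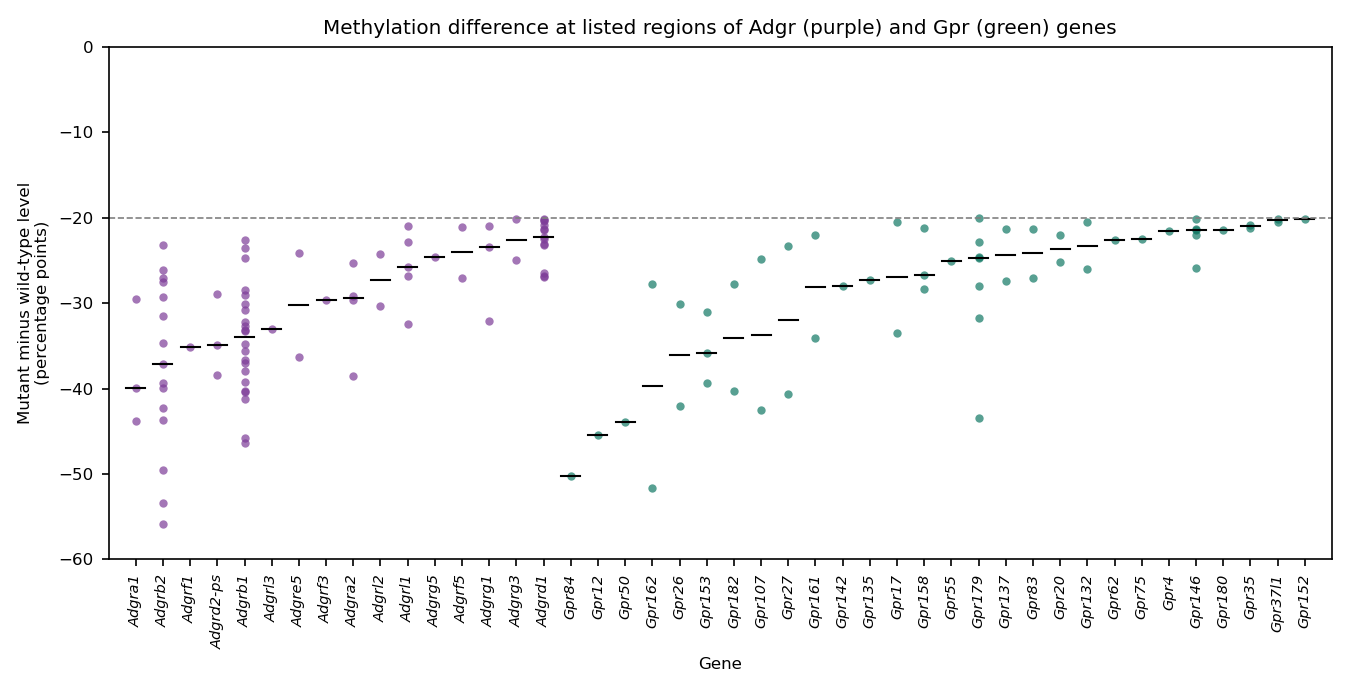
Mutant minus wild-type methylation level in percentage points (vertical axis) for 135 of the 139 member regions, by gene (horizontal axis), with Adgr genes in purple and Gpr genes in green. Points are regions, black bars are the median of a gene and the dashed line is the 20-point minimum of the list. Adgrb1 and Adgrb2 hold the most points, and the lowest point is an Adgrb2 region at -55.9.

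Most members lay inside genes rather than at their starts. Of the 139 regions, 110 lay in a gene body, 18 within 1 kb of a RefSeq gene start, 5 upstream and 6 downstream. Exons and introns were not told apart here. The 18 start regions had levels of 37.7% ± 1.85 in the mutant against 65.6% ± 0.483 in the wild type (SD, n = 3 each), and the 110 gene body regions had 46.98% ± 2.37 and 76.96% ± 0.153. Start regions thus had lower levels in both genotypes, while their mean difference (-27.97 points) was close to that of gene bodies (-29.98 points). Another gene was also listed for 16 members, such as Lims2 at Gpr17, Fgfr2 at Gpr26 and 3110082I17Rik at all 5 regions of Gpr146. Whether the other gene overlaps the region was not examined, and the values of these members cannot be given to the receptor gene alone.

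The brain angiogenesis inhibitor genes Adgrb1 and Adgrb2 carried the densest sets of members. Adgrb1 encodes an adhesion receptor that recognises phosphatidylserine on dying cells, and Adgrb2 is its close relative in brain. Adgrb1 (chromosome 15, 74516196 to 74589465, mm10) held 22 regions with 417 CpGs. Its mean level was 37.96%, 38.9% and 40.6% in the mutant replicates against 73.4%, 73.3% and 73.8% in the wild type. Losses ranged from 22.6 to 46.4 points, and 17 of the 22 regions lost 30 points or more. Adgrb2 (chromosome 4, 129984773 to 130022633) held 15 regions with 336 CpGs, with mutant means of 35.8%, 40.3% and 39.5% and wild-type means of 75.6%, 74.7% and 77.4%. The replicates of each genotype lay close together in both genes, and member regions were spread along each gene.

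The largest loss of all members was in the body of Adgrb2, at a region of 37 CpGs (chromosome 4, 130007217 to 130008758). Its level was 25.4%, 27.4% and 25.1% in the mutant against 81.1%, 80.9% and 83.5% in the wild type, a difference of -55.9 points. A region of 10 CpGs in the same gene (129998204 to 129998450) had 8.0%, 14.4% and 14.1% against 69.1%, 58.4% and 69.3%. There the mutant kept 18.6% of the wild-type level. Another Adgrb2 region (130012894 to 130013898) fell by 49.5 points. The Adgrb2 region at 130005144 to 130006093 showed the widest spread in this gene, with 27.5%, 40.1% and 51.0% in the mutant against 74.2%, 75.8% and 79.9% in the wild type. In Adgrb1 the largest losses were at 74560943 to 74561817 (28.4% ± 3.23 against 74.8% ± 0.976) and at 74540818 to 74541200 (15.9% ± 1.11 against 61.7% ± 2.51; SD, n = 3 each). Its region with the most CpGs (45 CpGs, 74575851 to 74578492) had 34.6%, 35.7% and 35.02% in the mutant against 73.2%, 74.2% and 75.4% in the wild type.

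Near the start of Adgrb1 the picture differed. The 3 nearest candidate regions of the authors' table, across the start or shortly after it, were not in the list and had low levels in both genotypes. Limma called the first 2 lower in the mutant, with 4.96% against 12.1% at 74515963 to 74516201 (adjusted p = 0.0146) and 4.56% against 12.8% at 74518001 to 74518204 (adjusted p = 0.00721). The last, at 74518359 to 74518695, had 4.31% ± 0.529 in the mutant against 6.81% ± 3.71 in the wild type (SD, n = 3 each), and was not called by limma (adjusted p = 0.340). Candidate regions come from the same contrast and libraries as the list, so limma's calls and p-values at them are a description. Upstream of that low stretch, the member at 74512048 to 74513858 had 32.3% ± 1.41 and 72.6% ± 1.0. Of the candidate regions in the gene or within 5 kb of it, 22 of 28 were in the list for Adgrb1 and 18 of 23 for Adgrb2. Over the series, 35439 of 107115 candidate regions were listed. These 2 genes were named for their many members, so no test was made of that contrast. Adgrb3, the other gene of the subfamily, had 1 candidate region and none in the list. Of the 18 listed Adgrb2 regions, 15 were members.

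**Figure D2:**
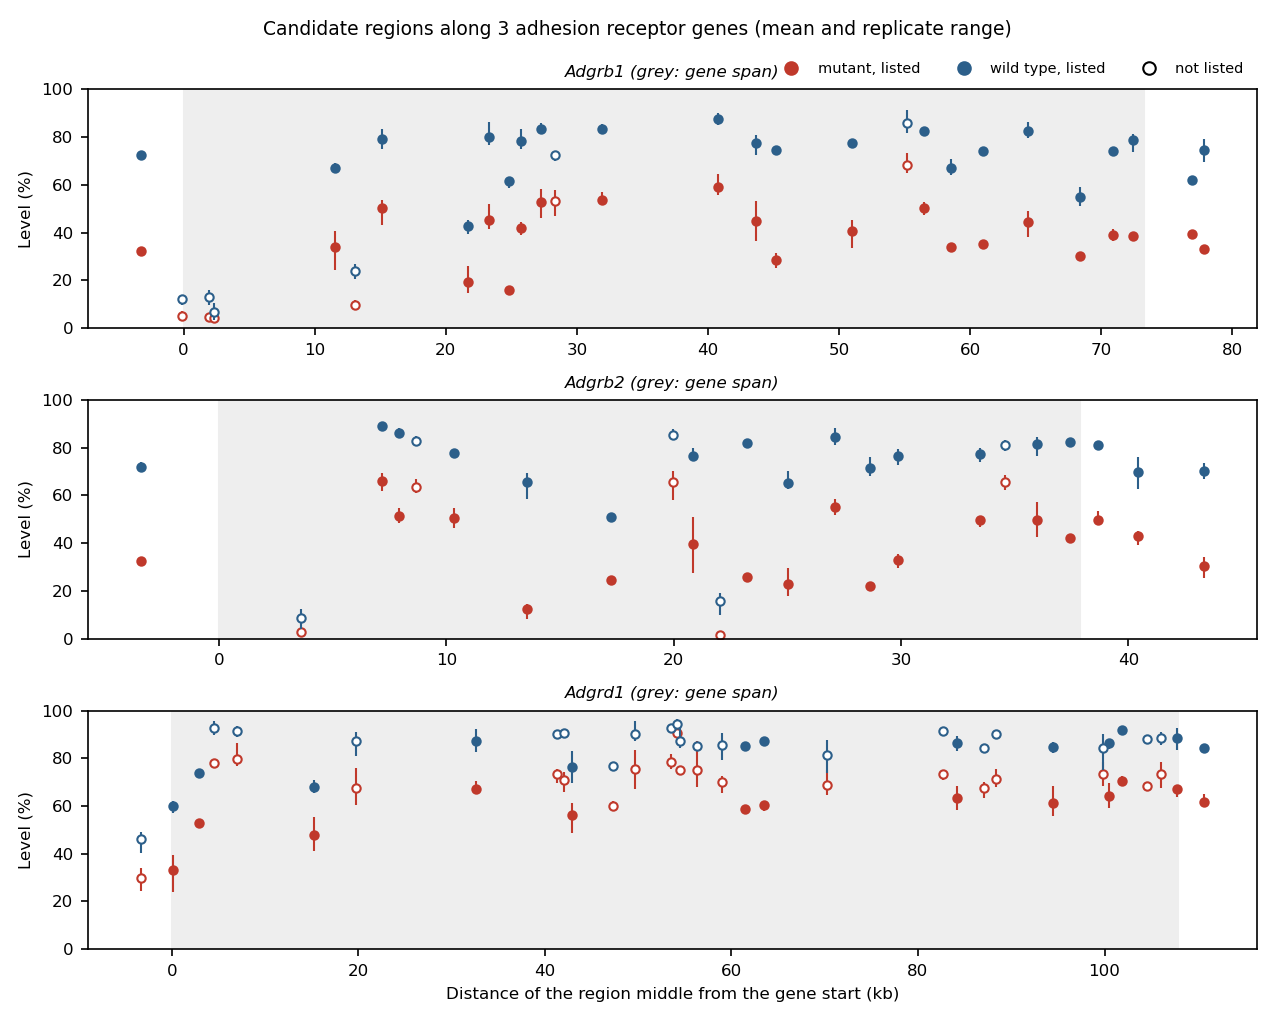
Methylation level in percent (vertical axis) of candidate regions against the distance of the region middle from the gene start in kb (horizontal axis) for Adgrb1, Adgrb2 and Adgrd1, with the gene span in grey. Points are means of 3 replicates, vertical lines the replicate range, filled points listed regions and open points regions not listed. Mutant points (red) lie well below wild-type points (blue) along Adgrb1 and Adgrb2, while Adgrd1 has smaller gaps and many open points, and regions near the Adgrb1 start are low in both genotypes.

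The 43 members at other adhesion genes had a mean difference of -27.2 points. Adgrd1, an orphan adhesion receptor gene of 108 kb, held 13 members on chromosome 5, with means of 56.6%, 57.8% and 61.98% in the mutant against 80.6%, 82.0% and 82.0% in the wild type. Its losses ranged from 20.1 to 26.96 points, and 13 of its 33 candidate regions were listed (35439 of 107115 over the series). The pseudogene Adgrd2-ps had 3 members, of which that with the most CpGs of all members (56 CpGs; chromosome 2, 38670727 to 38672856) had 43.9%, 42.9% and 45.4% against 82.9%, 82.8% and 81.8%.

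Adgra2 encodes the receptor that helps brain endothelium respond to Wnt7 ligands, and Adgra1 is its orphan relative. Adgra1 had 3 members. One lay 471 bp inside the start (chromosome 7, 139834645 to 139835366), with 34.8%, 29.0% and 29.6% in the mutant against 77.4%, 71.4% and 76.0% in the wild type, and one near the end of the gene (139877311 to 139877768) fell by 39.96 points. Between them a region of 52 CpGs (139874530 to 139876891) fell by 29.5 points. Adgra2 had 4 members of 10 CpGs each, with losses of 25.3 to 38.5 points and means of 43.95% ± 2.31 and 74.6% ± 0.563 (SD, n = 3 each).

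The latrophilin genes Adgrl1, Adgrl2 and Adgrl3, which encode synaptic adhesion receptors, held 8 members with the highest levels among the adhesion subfamilies (58.3% ± 3.01 in the mutant against 85.4% ± 1.05 in the wild type; SD, n = 3 each). Their median SD between mutant replicates was 7.73 points, against 3.63 for all members. The Adgrl3 region (chromosome 5, 81794476 to 81794978) had 71.9%, 54.3% and 43.0% in the mutant against 89.2%, 87.4% and 91.7% in the wild type. An Adgrl2 region (chromosome 3, 148977056 to 148977408) had 43.7%, 55.4% and 72.4% against 91.7%, 85.2% and 85.6%. Mutant replicate 1 was the highest at Adgrl3 and the lowest at Adgrl2. Adgrl1 had 5 members with losses of 21.0 to 32.4 points, and at its region 83910305 to 83911269 on chromosome 8 the genotypes were separated by only 8.33 points. In the Adgrf group, the Adgrf3 region had 11.6%, 11.3% and 22.5% against 45.0%, 41.7% and 47.5%. Adgrf1 fell by 35.1 points upstream of the gene, and the 2 regions of Adgrf5, a receptor that limits lung surfactant, fell by 27.0 and 21.1 points.

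Among Gpr genes with a role in blood or immune cells, Gpr84 showed the largest loss. Gpr84 encodes a receptor for medium-chain fatty acids on neutrophils and macrophages. Its region of 25 CpGs (chromosome 15, 103308917 to 103309566), 872 bp inside the start of a short gene, had 23.8%, 31.2% and 34.2% in the mutant against 80.9%, 78.9% and 79.9% in the wild type. The lowest wild-type replicate was 44.7 points above the highest mutant replicate.

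Gpr132, a receptor of lymphocytes and macrophages in the proton-sensing group, had the lowest wild-type level of all members at its start. The region whose promoter sequence is given above (chromosome 12, 112861012 to 112861377) had 6.64%, 9.45% and 7.0% in the mutant against 30.5%, 21.6% and 32.3% in the wild type. Its member in the gene body (112852720 to 112853107) had 45.6% ± 4.19 and 71.6% ± 1.58 (SD, n = 3 each). Gpr4, another proton sensor and a receptor of endothelial cells, had a single member of 44 CpGs that fell by 21.6 points from a wild-type level of 87.6%.

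Gpr35, a receptor for metabolites such as kynurenic acid, had its start region (chromosome 1, 92978569 to 92979412) at 55.8%, 57.6% and 62.1% in the mutant against 78.9%, 78.5% and 80.6% in the wild type. A second region 2245 bp after that start had 44.1%, 47.1% and 59.4% against 74.3%, 68.3% and 71.5%, where the groups were only 8.90 points apart. Gpr55, the receptor for lysophosphatidylinositol, fell by 25.1 points. Gpr146, a receptor linked to blood cholesterol, had 5 members that fell by 20.2 to 25.8 points, from a wild-type mean of 74.9% ± 0.248 (SD, n = 3). At its start region shown above (chromosome 5, 139389178 to 139389989) mutant replicate 3 stood apart, with 46.1%, 46.8% and 64.2% against 76.2%, 79.9% and 78.5%.

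The 3 adhesion receptor genes Adgrg5, Adgrg1 and Adgrg3 lie side by side on chromosome 8 and all had members. Adgrg1, known as Gpr56 and expressed in blood stem cells, had a region 459 bp before a start (94973618 to 94974297) with 47.0%, 50.1% and 40.7% in the mutant against 60.8%, 75.2% and 64.6% in the wild type. Its body region (94992711 to 94993647) had 31.3%, 30.8% and 30.2% against 57.3%, 66.9% and 64.4%. At the remaining Adgrg1 region (94981282 to 94982625) the levels were 33.2% ± 3.09 and 56.7% ± 4.99 (SD, n = 3 each). At the start of Adgrg3, known from neutrophils as Gpr97, the region of 28 CpGs (95015713 to 95018201) had 36.1%, 37.0% and 41.4% against 60.1%, 57.0% and 57.96%. Its second region fell by 24.99 points, and the region of Adgrg5 fell by 24.6 points. On the same chromosome Adgre5, which encodes the leukocyte receptor CD97, had a region 393 bp before its start (83741704 to 83742179) with 17.4%, 25.7% and 21.6% in the mutant against 51.6%, 62.3% and 59.7% in the wild type. Its body region fell by 24.1 points.

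**Figure D3:**
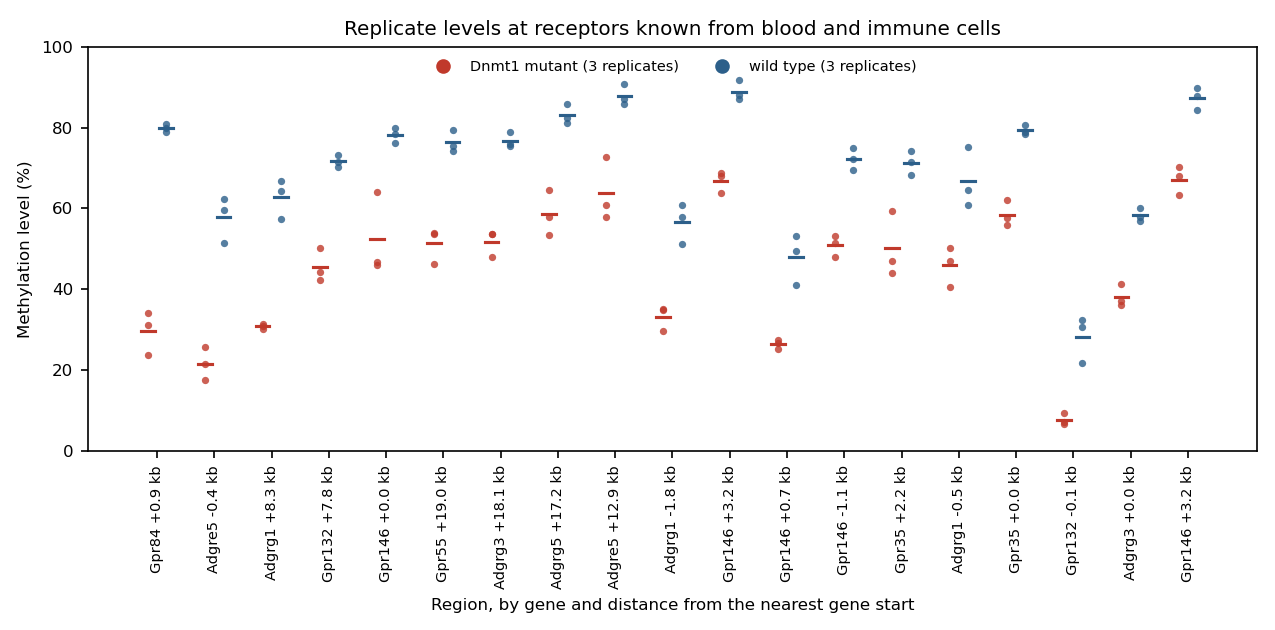
Methylation level in percent (vertical axis) in each of 3 mutant (red) and 3 wild-type (blue) replicates at 19 of the 22 members at receptors known from blood and immune cells, by gene and signed distance from the nearest gene start in kb (horizontal axis, ordered by the difference). Points are replicates and short bars their means. Gpr84 has the widest gap, and no region shown has overlapping groups.

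The 10 genes of the list of receptors known from blood and immune cells that had a member held 22 members with levels of 42.6% ± 2.58 in the mutant against 68.8% ± 0.113 in the wild type (SD, n = 3 each), and a median difference of -23.8 points against -27.5 points for all members. A loss of 20 to 30 points was seen at 18 of the 22 and a loss of 40 points or more at 2. That list held 22 genes, and 12 of these had no member. Gpr25 had a listed region within 5 kb that is named for another gene, with a difference of -29.6 points. Candidate regions that were not listed lay at Gpr18, Gpr65, Gpr160 and Gpr183. Gpr183, the oxysterol receptor that guides B cells, had 3 such regions with differences of -17.96 to -10.4 points. For Adgre1, Adgre4, Gpr15, Gpr34, Gpr141, Gpr171 and Gpr174 the table held no candidate region in the gene or within 5 kb.

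Receptors that raise cyclic AMP without a ligand, Gpr12 and Gpr26, had 3 members that lost 30.1 to 45.4 points. Of the other genes of that group, Gpr3 had 5 candidate regions with a median difference of -9.07 points, 1 of them listed but no member, and Gpr6 had 3 with a median of -7.25 points, none listed. Gpr12, a receptor of brain and oocyte, had a region 301 bp inside its start (chromosome 5, 146583356 to 146584103) with 24.8%, 29.2% and 31.2% in the mutant against 72.9%, 75.6% and 73.0% in the wild type. Gpr26, a brain receptor, kept the least methylation of all members in relation to the wild type. At 131967413 to 131967564 on chromosome 7 its levels were 8.83%, 4.83% and 5.58% against 54.2%, 49.6% and 41.5%, so that the mutant kept 13.3% of the wild-type level. Fgfr2 is listed for that region too.

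Class C orphan receptors had 11 members. Gpr179, a gene of retinal bipolar cells, had 7, with gene means of 43.9%, 51.99% and 54.0% in the mutant against 79.3%, 78.1% and 76.3% in the wild type. Mutant replicate 1 was thus lower than the other mutants, by a wider margin than over all members. Its largest loss (chromosome 11, 97335184 to 97336243) was 43.5 points, and its region 457 bp inside the start fell by 24.7 points. One Gpr179 region (97342881 to 97343723) was low in both genotypes, with 5.15%, 14.5% and 14.2% against 36.8%, 35.2% and 35.6%. Gpr158, a brain receptor, had 2 neighbouring members near its start, both shared with Gm13327. The first (chromosome 2, 21368224 to 21368580) had 15.8%, 7.17% and 9.75% against 30.4%, 39.7% and 42.8%, and the second (21368913 to 21369463) had 11.6%, 13.1% and 6.06% against 36.2%, 37.3% and 42.1%. Its other member, far inside the gene, stood at 67.6% ± 5.87 and 88.8% ± 2.19 (SD, n = 3 each).

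Among the other neural and endocrine orphans, Gpr162 had the largest loss, at a region of 36 CpGs (chromosome 6, 124858085 to 124859656) with 22.4%, 27.2% and 30.5% in the mutant against 81.2%, 74.3% and 79.3% in the wild type. The adjacent region of 43 CpGs fell by 27.7 points. Mutant means in these neighbours were 26.7% and 51.8%, and wild-type means 78.3% and 79.5%. Gpr153 had 3 members with losses of 31.0 to 39.3 points. Gpr182, an endothelial receptor that binds chemokines, had a region (chromosome 10, 127750354 to 127750635) with the highest wild-type level of all members, 95.1%, 96.2% and 96.9%, against 72.2%, 57.7% and 74.9% in the mutant. Its neighbouring member fell by 40.3 points. Gpr17, a receptor of oligodendrocyte precursors, had 2 members. The member of 49 CpGs, shared with Lims2, had 59.5%, 63.96% and 63.7% in the mutant against 79.9%, 85.1% and 83.6% in the wild type, a difference of -20.5 points. The other had a difference of -33.4 points. Of 10 candidate regions in Gpr17 or within 5 kb, 8 were listed (35439 of 107115 over the series). The lowest difference among the 10 was -62.4 points, at a region that is no member. Gpr161, a receptor of the primary cilium that restrains Hedgehog signalling, had 2 members that fell by 34.1 and 22.04 points.

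Gpr50, a relative of the melatonin receptors and the only member on a sex chromosome, varied most between replicates. Its region (chromosome X, 71666926 to 71667729) had 41.1%, 7.40% and 13.3% in the mutant against 81.5%, 66.7% and 45.5% in the wild type. The highest mutant and the lowest wild-type replicate were 4.40 points apart, the narrowest gap of all members. The members with the smallest loss were a Gpr179 region (-20 points), Gpr37l1 (-20.1), an Adgrd1 region (-20.1) and Gpr152 (-20.1). Gpr37l1, a receptor of astrocytes, had 71.4%, 69.7% and 74.9% in the mutant against 91.7%, 91.0% and 93.7% in the wild type near its start, and kept 78.2% of the wild-type level, the highest share of all members. The brain receptors Gpr75, near its start and shared with Asb3, and Gpr135, in its body, had wild-type levels under 50%. Gpr75 had 12.1%, 13.8% and 23.0% against 39.2%, 39.0% and 38%, and Gpr135 had 4.44%, 12.9% and 5.78% against 36.7%, 33.8% and 34.6%. Other start regions, at Gpr137, Adgrf5 and Adgrd1, fell by 27.4, 27.0 and 27.0 points, and that of Gpr146 near its first start (139378426 to 139378975) by 21.5 points.

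**Figure D4:**
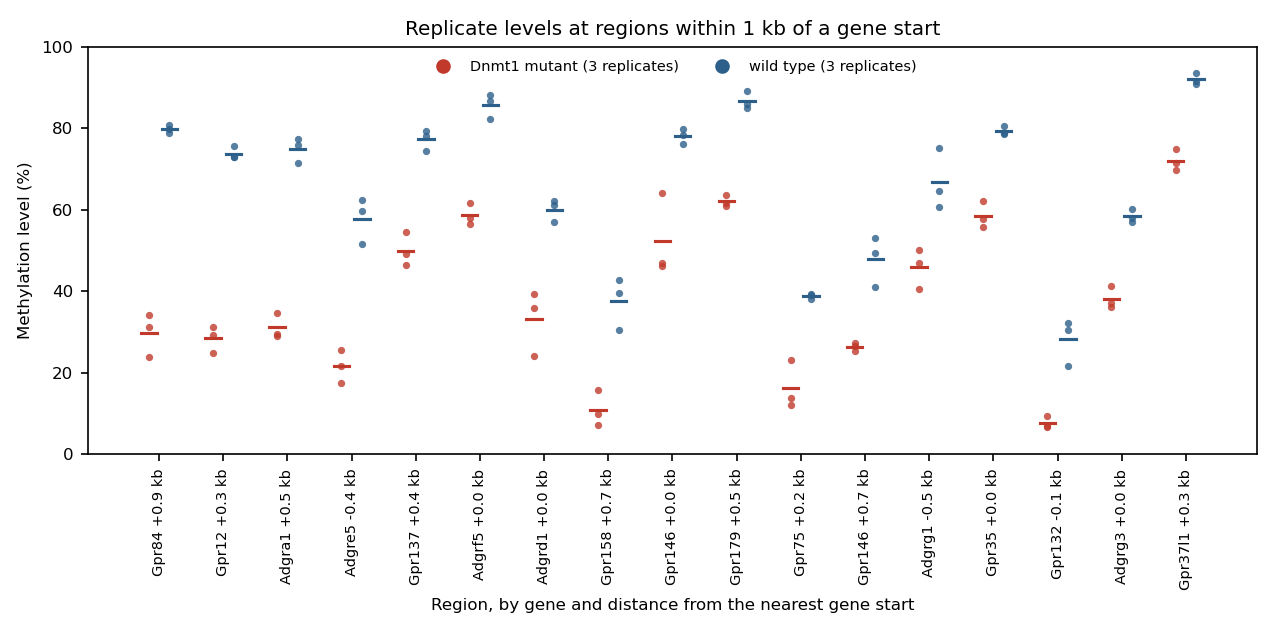
Methylation level in percent (vertical axis) in each of 3 mutant (red) and 3 wild-type (blue) replicates at 17 of the 18 members within 1 kb of a gene start, by gene and signed distance from that start in kb (horizontal axis, ordered by the difference). Points are replicates and short bars their means. Gpr84, Gpr12 and Adgra1 have the widest gaps, and Gpr132 the lowest level in both genotypes.

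At the distance limit that chose the members, just inside 5000 bp lay regions of Adgrf1 (4074 bp), Adgrb1 (4142 bp) and Gpr27 (4338 bp), with differences of -35.1, -41.3 and -40.6 points. Just outside it by the deposited distance lay regions of Gpr20 (5549 bp) and Adgrg5 (6209 bp), with -24.1 and -27.2 points. That Gpr20 region (chromosome 15, 73688351 to 73689055) overlaps the RefSeq span of the gene (73688497 to 73707505). The deposited distance and RefSeq thus differ there.

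Replicates of the mutant were more spread than those of the wild type. The median SD over members was 3.63 points (mutant) and 2.51 (wild type), against 4.24 and 2.65 for listed regions within 5 kb of any gene. Mutant replicate 1 was the lowest mutant in 84 members (60.4%, against 57.6%), and replicate 3 the highest in 72 (51.8%, against 57.0%). Mutant replicates ranged over more than 20 points at 4 members (Gpr50, Adgrl3, Adgrl2 and Adgrb2), and wild-type replicates at 1 (Gpr50). A gap of less than 10 points between the genotypes occurred at 4 members, at Gpr50, Adgrl1, Adgrd1 and Gpr35.

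Candidate regions that the list leaves out were examined at all protein-coding Gpr and Adgr genes. Their smaller losses follow largely from the minimum loss of the list, so nothing is read from a contrast with listed regions. Of 102 protein-coding Gpr and Adgr genes in the RefSeq table, 70 had a candidate region in the gene or within 5 kb, and 32 had none. These held 435 candidate regions, 163 listed and 272 not listed. Of the 272, limma called 235 lower in the mutant (86.4%) and 0 higher at an adjusted p under 0.05, against 90.2% and 0.0725% of all candidate regions outside the list. At an unadjusted p under 0.05 limma also found 0 of the 272 higher. Their median difference was -13.8 points, against -13.5 points over all candidate regions outside the list. The replicates did not overlap, with the mutant lower, in 249 of the 272, against 91.4% of all candidate regions outside the list. Both shares were close to their backgrounds.

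The 37 regions that were not called lay mostly at the lowest and highest levels. Of these, 28 had a wild-type level under 15% and 7 had 90% or more. The fit used levels in percent, where a region of low wild-type level cannot lose many points. On the logit scale limma called 252 of the 272 unlisted regions lower, and with a mean-variance trend 250. How many were not called thus depends on the scale and the fit. At Gpr62, a brain receptor gene, 4 candidate regions near the start had genotype means between 0% and 1.58%. Of the 51 unlisted regions with a wild-type level under 20%, limma called 23 lower, against 212 of 221 with a higher level. Shares over all candidate regions at such levels were not computed, so nothing particular to these genes is read from the counts by level. At 22 genes with candidate regions none was listed, among them Gpr157 with 10 regions and differences of -18.1 to -4.06 points, and Adgrv1 with 4 regions and differences of -16.7 to -2.78 points.

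**Figure D5:**
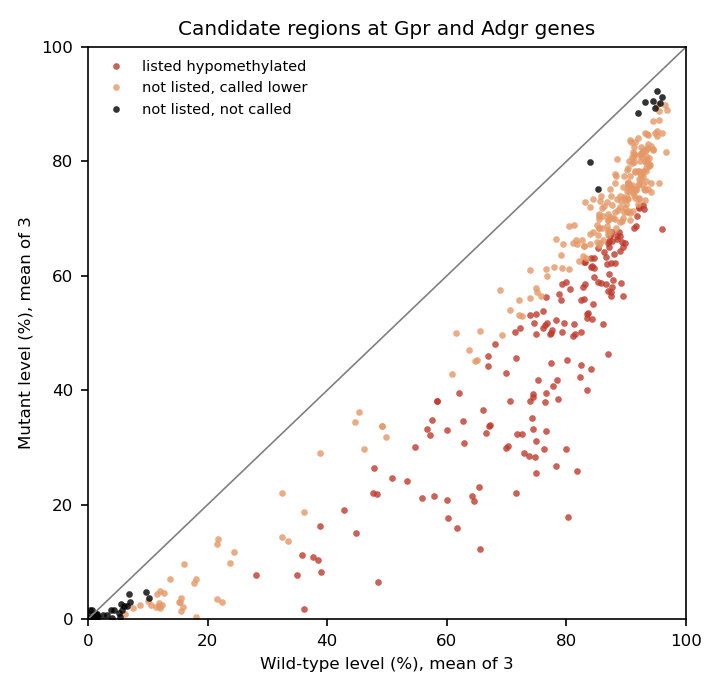
Mutant against wild-type methylation level in percent, each a mean of 3 replicates, for the 435 candidate regions at Gpr and Adgr genes, with the line of equal levels in grey. Listed regions are red, unlisted regions called lower orange and unlisted regions not called black. Nearly all points lie below the line, and the 37 black points gather at its lower and upper ends.

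Candidate regions were also examined at genes for signalling partners of the receptors. Such regions lay at 28 G protein subunit genes, 20 receptor kinase, arrestin and Rgs genes and 9 adenylyl cyclase genes. Each of these genes held at least 1 that limma called lower, as did 69 of 70 Gpr and Adgr genes. No background was computed for counts of genes, so nothing particular to signalling partners is read from them. Of all candidate regions limma called 93.5% lower and 0.0485% higher. Among G protein subunit genes 28 of 32 had a candidate region, and 183 of 200 regions were called lower (91.5%) and 0 higher, with a median difference of -17.2 points. The largest losses were at Gnat1, the rod transducin gene (23.2%, 12.3% and 7.15% in the mutant against 73.5%, 75.5% and 75.7% in the wild type), and at Gng7 (5.24%, 6.82% and 3.53% against 52.4%, 55.5% and 54.3%). Receptor kinase, arrestin and Rgs genes, whose products end the signal, had 212 of 221 regions called lower (95.9%) and 0 higher at 20 of 30 genes, with a median of -16.96 points. At an unadjusted p under 0.05 limma also found 0 higher in both groups. Regions of Rgs3 and Rgs16 fell by 36.8 and 35.2 points. Adenylyl cyclase genes, which make cyclic AMP, had 120 of 134 regions called lower (89.6%) and 1 higher at 9 of 10 genes, with a median of -16.8 points. Regions of Adcy5 and Adcy7 fell by 56.8 and 38.8 points. The higher region was in Adcy4 (chromosome 14, 55783264 to 55783725), named after its values were seen, with 52.2%, 60.1% and 77.4% in the mutant against 42.0%, 50.4% and 46.1% in the wild type (limma adjusted p = 0.0183), and its lowest mutant replicate lay only just above the highest wild-type replicate. The median over all candidate regions was -16.6 points, so the 3 lists lay near it.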

How the data were processed

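Whole-genome methylation of lineage-negative bone marrow progenitors was measured in 12 libraries, 6 per genotype. The authors deposited levels as a fraction from 0 to 1 for 107115 candidate regions in 6 columns, multiplied here to percent. Sources used here do not state whether a column merges both kits or which aligner was used, and no comparison within a kit could be made. The deposited list of hypomethylated regions, called with metilene per the file name, gives group means as a fraction, the q-value and further adjusted p-value, and the difference as a score. Positions are on mm10, as the submitters' processing notes name it. No read counts accompany the levels, so no coverage minimum or counting error could be set.

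Printed means were taken over replicate columns. For members they differed from the authors' group means by up to 4.17 points (mutant) and 5.29 points (wild type). Coordinates are as deposited: at 1520 of 1520 starts that fell in a RefSeq promoter window, the C of the first CpG lay 2 bases to the right of the deposited start. The deposited distance is to the gene, 0 where they overlap, so distances to gene starts came from RefSeq tables of GRCm38.p6 and the strand in the list. All candidate regions were fitted with limma 3.58.1 in R 4.3.3 (Benjamini-Hochberg, threshold 0.05), and the script was tested on simulated data. Those regions come from the same contrast and libraries as the list, so limma's calls, counts and p-values are a description. Alternatives left out each replicate and changed the scale, threshold, window, weighting and list stringency. Members and gene lists were chosen with earlier results of these data known. Named regions were start regions (up to 10 by loss, the others added), the 8 largest and 4 smallest losses, the 3 with most CpGs, genes with 3 or more regions, and blood cell receptors. Others were named after their values were seen. Python 3.11.15 with numpy 2.4.6, pandas 2.3.3 and matplotlib 3.10.9 was used. No paired samples were assumed. Results of 2 member genes are not reported here: their 4 regions stay in the totals and are left out of plots that name genes.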

Additional observations from a re-analysis of the deposited data

How the results depend on the processing

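The mean difference over members (-29.96 points) stayed between -31.1 and -28.9 points without each replicate in turn. A replicate block cannot change this mean by its arithmetic, so nothing is read from that alternative. The mean difference was -34.5 points for members with a metilene q under 0.05, which number 52 of 139 (37.4%, against 23.3% of all listed regions). A q under 0.001 was held by 37 members. Most members thus had a q of 0.05 or more, among them both members of Gpr132 and of Adgre5 and the start region of Adgrg3. Without Adgrb1 and Adgrb2, an alternative chosen after seeing the data, it was -27.9 points. Calls at unlisted family regions ranged from 214 to 233 without each replicate, and calls at partner genes from 496 to 515. With the replicate block they were 235 and 513. Same-numbered columns of the genotypes deviated together only weakly (correlations of 0.0372, 0.00489 and 0.05 across regions). Columns of unlike number had correlations of -0.0507 to 0.0117. For each mutant column the same-numbered value was the highest. Correlations this weak cannot show whether the numbers pair the samples. On the logit scale the calls rose to 252 and 535, and with a mean-variance trend to 250 and 531. All other alternatives run for these 4 results stayed within 1.5 times the main count, or, for the mean difference, within 1 SD between mutant replicates. Most candidate regions were called in the main fit, so call counts had little room to rise. Only a fall could have taken them outside this limit. The unknown number of reads limits how far a difference at a single region can be read.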
